A study of Bos taurus with 16 samples.

Results

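The genes described are the 37 genes of the unfolded protein response and of chaperoning in the endoplasmic reticulum (ER), followed in bovine precision-cut liver slices exposed to agonists of the peroxisome proliferator-activated receptors (PPAR). The members were chosen by gene symbol, and all 37 symbols were among the 28786 gene names of the count table. All 37 passed the filter on low counts (more than 4 counts in 1 or more of the 12 tested libraries), which 19824 genes passed. They fall into 10 chaperones and co-chaperones, 8 lectin chaperones and disulfide enzymes, 7 genes of ER-associated degradation, 6 sensors and their transcription factors and 6 targets of the integrated stress response.

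The slices came from liver biopsies of 4 primiparous Jersey cows early after calving. They were cultured in William's Medium E for 18 h with the PPARα agonist WY-14643 at 100 µM, with the PPARδ agonist GW-501516 at 50 µM, with the PPARγ agonist rosiglitazone at 100 µM, or in control wells that GEO's labels call untreated. All wells, control wells included, held 0.8% DMSO, the solvent of the agonists. Each cow gave 1 library per group, 16 in all, of 3' end tags (QuantSeq), so every value pairs with a control value of the same animal, and the doses of the agonists differ. The libraries of cow 574 entered no test. That animal had low RNA integrity and was removed in the original analysis too. The groups therefore hold 3 libraries each, of cows 581, 576 and 567, and values by cow are given in that order.

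Secreted and membrane proteins fold in the ER, where BiP, the product of HSPA5, binds unfolded chains and also holds the stress sensors inactive. When unfolded chains accumulate, IRE1 (ERN1) splices the messenger RNA of XBP1, ATF6 is cut to release a transcription factor, and PERK (EIF2AK3) slows translation while that of ATF4 is favoured. XBP1 and ATF6 raise chaperones and degradation genes, and ATF4 raises DDIT3, TRIB3, ASNS and other genes of the integrated stress response. Hepatocytes secrete most plasma proteins and depend on this machinery. Activation of IRE1, ATF6 and PERK occurs largely on the protein and by splicing, which tag counts of messenger RNA do not measure.

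The 12 libraries held 3081981 to 10227330 counts in genes, of which RN18S1, an 18S ribosomal RNA, took 11.9 to 63.8%. In 3 libraries, those of the PPARα agonist in cows 581 and 567 and of the PPARδ agonist in cow 581, the column label carries an extra mark that no source used here explains. These 3 marked libraries stood apart from the other 9: they held 8215399 to 10227330 counts against 3081981 to 6143418, RN18S1 took 11.9 to 16.4% against 33.1 to 63.8%, and 3.69 to 6.51% against 8.10 to 17.1% of reads were unmapped. The PPARδ agonist library of cow 576 had the highest RN18S1 share (63.8%) and the fewest genes detected (9993). The 8 hepatocyte markers were detected in every library, and their summed level was 1568 to 9023, 3561 to 5313 and 3645 to 5916 CPM for the PPARα, PPARδ and PPARγ agonists, against 1878 to 4710 CPM in control slices. CPM here are library-scaled counts after normalisation by the trimmed mean of M-values (TMM), and since QuantSeq reads 1 tag from the 3' end of a transcript they were not divided by gene length.

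Most members were well expressed in these slices, with a median percentile of 92.6 among the genes tested in control slices. In control slices HSPA5 averaged 3134 ± 528 CPM (SD, n = 3), rank 17 of all genes tested, and HSP90B1, which encodes the ER form of HSP90 (GRP94), averaged 2219 ± 300.0 CPM, rank 22. ATF4 (867 ± 112 CPM), CANX (841 ± 18.3), CALR (717 ± 48.2) and PDIA3 (523 ± 39.6) followed. The means of ATF4 and CANX differed by less than the SD of ATF4. At the low end stood CHAC1 (12.1 ± 7.35 CPM), ERO1B (6.62 ± 3.96), SYVN1 (3.83 ± 5.80) and DERL3 (2.83 ± 1.73), whose ranges overlapped. SYVN1 and DERL3 lay below the middle of the genes tested, at percentiles 47.3 and 42.4.

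With the PPARδ agonist 4 of the 37 members rose and none fell: TRIB3, DNAJB9, HYOU1 and ERO1A. The test was edgeR's quasi-likelihood test with treatment as the only term and a Benjamini-Hochberg adjusted p under 0.2 over all genes tested, the cut-off the study used. By that rule 0.308% of all genes tested were called with this agonist. With the cow as a block, which uses that each animal gave all 4 groups, 13 of the 37 rose and none fell, against 2.03% of all genes tested. The median log2 fold change of the 37 members was 0.90, against 0.00 over all genes tested. Of the 37 members 34 were above 0, where 48.7% of all genes tested were.

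With the PPARα agonist 2 members rose, DNAJB9 and PDIA4, and none fell, where 0.535% of all genes were called. With the cow as a block 7 rose and 1, PDIA3, fell, where 2.68% of all genes were called. With the PPARγ agonist 1 member, DNAJB9, rose, where 0.631% of all genes were called, and with the block 10 rose and none fell, where 2.86% were called. The median log2 fold change of the members was 0.48 with the PPARα agonist and 0.57 with the PPARγ agonist, against 0.12 and 0.08 over all genes tested. The 3 comparisons share the same 3 control libraries. With DESeq2 the medians over all genes were 0.00, 0.00 and 0.03 for the PPARα, PPARδ and PPARγ agonists, and those of the members were 0.37, 0.82 and 0.52.

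**Figure D1:**
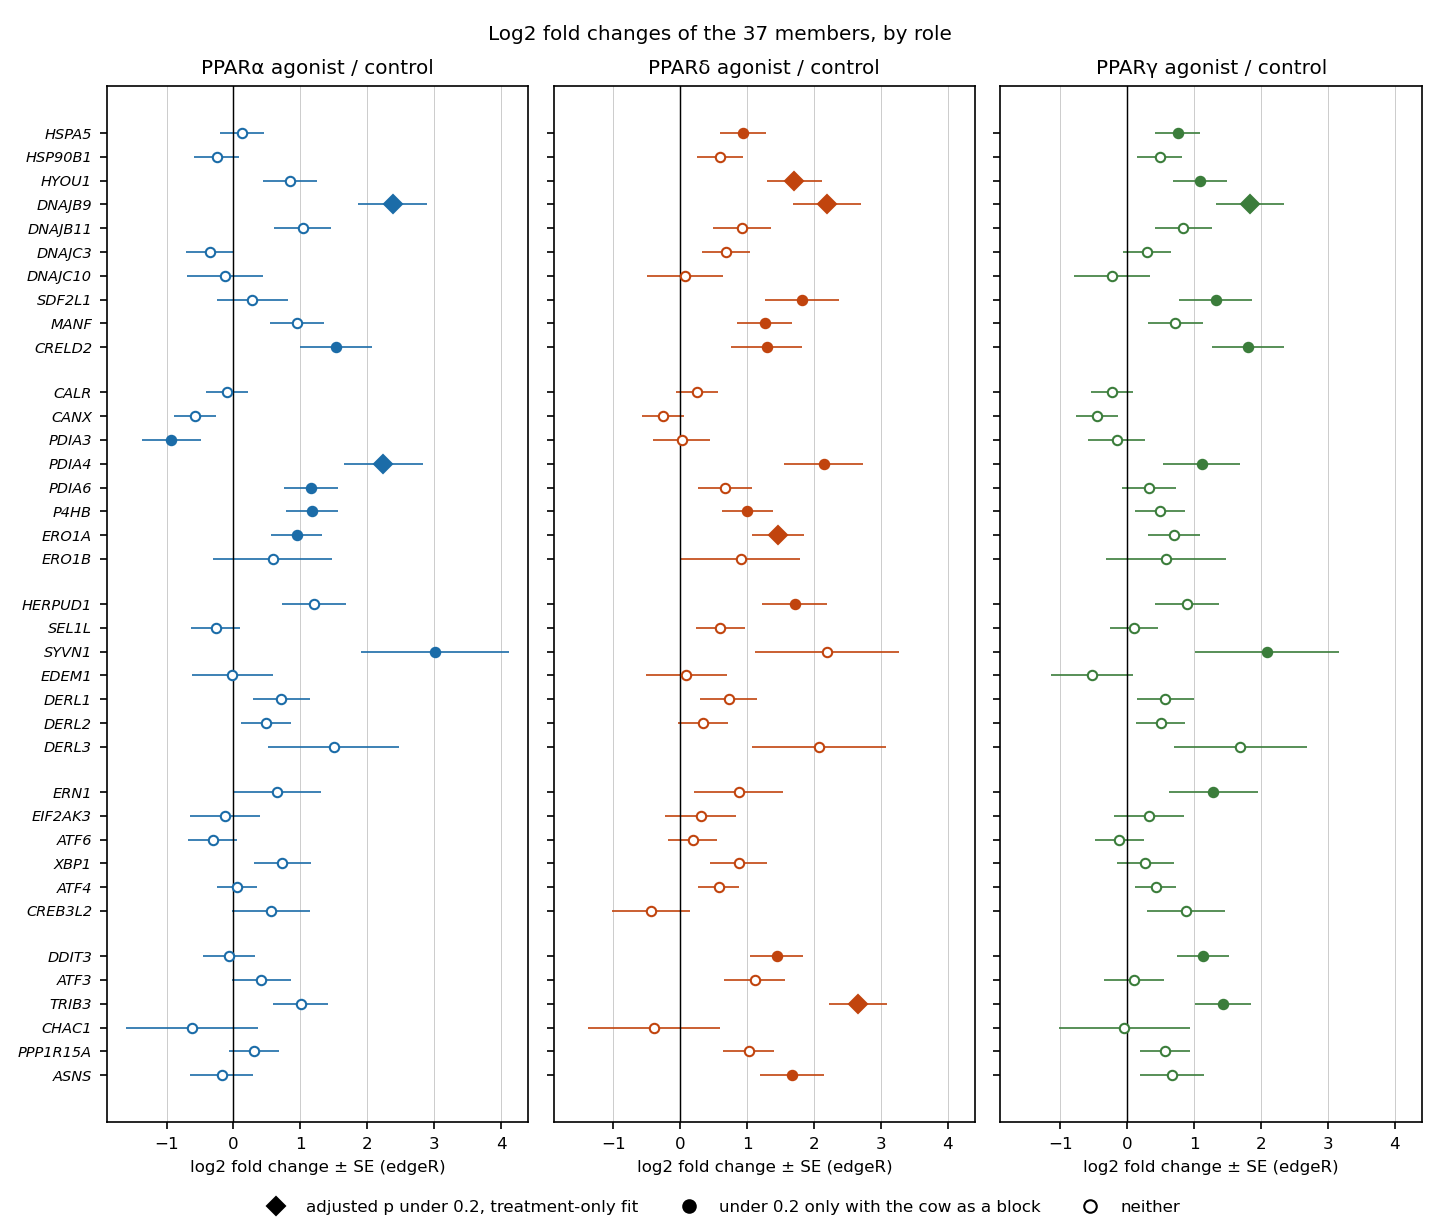
Log2 fold changes of the 37 members against control (x axis, edgeR with treatment only, bars are the SE), grouped from top to bottom as chaperones, lectins and disulfide enzymes, degradation genes, sensors and integrated stress response targets. Diamonds had an adjusted p under 0.2, filled circles only with the cow as a block, and open circles in neither fit. With the PPARδ, PPARα and PPARγ agonists 34, 24 and 30 of 37 members lie above 0. Among all genes tested the shares above 0 were 48.7, 53.9 and 53.1%.

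Every library of the PPARδ agonist was above every control library for 17 of the 37 members, where 4.59% of all genes tested, and 6.05% of the 14374 genes that pass edgeR's filterByExpr, had this pattern. With the PPARγ agonist this held for 14 members, against 8.7% of all genes and 10.7% of those past filterByExpr. With the PPARα agonist it held for 0 members, against 9.33% and 10.8%. For 11 members, HSPA5, HYOU1, DNAJB9, DNAJB11, P4HB, DERL3, ATF4, DDIT3, TRIB3, PPP1R15A and ASNS, the pattern was present with both the PPARδ and the PPARγ agonist, which share the controls. The share of all genes with the pattern for both agonists is not given here, so no excess is read from this count.

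Among the chaperones, DNAJB9 (ERdj4), a J-domain partner of BiP and a classical target of XBP1, rose with all 3 agonists. It reached 200.3, 33.8 and 180.3 CPM with the PPARα agonist, 216, 61.4 and 85.9 CPM with the PPARδ agonist and 142, 65.7 and 76.2 CPM with the PPARγ agonist, against 21.1, 22.6 and 35.7 CPM in control slices. All libraries of the PPARδ and PPARγ agonists lay above the controls, while the PPARα agonist library of cow 576 lay within them. The log2 fold changes were 2.38 ± 0.52 (SE; adjusted p = 0.0493), 2.19 ± 0.51 (0.103) and 1.83 ± 0.51 (0.159) for the PPARα, PPARδ and PPARγ agonists. With the cow as a block the adjusted p was 8.13e-05, 4.96e-04 and 0.00214.

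HYOU1, the large ER chaperone GRP170 that exchanges nucleotide on BiP, rose with the PPARδ agonist. Its level was 327, 497 and 237 CPM there, and 261, 85.6 and 239 CPM with the PPARα agonist. It was 326, 146 and 218 CPM with the PPARγ agonist, against 106, 73.7 and 146 CPM in control slices. The PPARδ agonist libraries were all above the controls, as were those of the PPARγ agonist, whose lowest value lay just above the highest control. The log2 fold change was 1.70 ± 0.41 (adjusted p = 0.122; 6.98e-05 with the block) with the PPARδ agonist. With the PPARγ agonist it was 1.08 ± 0.41 (0.521), which passed only with the block (1.06 ± 0.33, adjusted p = 0.0779).

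HSPA5, the most abundant member, stood at 5723, 7520.3 and 4748 CPM with the PPARδ agonist and at 6752, 3571 and 5554 CPM with the PPARγ agonist. With the PPARα agonist it was 4508, 1393 and 4369.6 CPM, against 3429, 2524 and 3447 CPM in control slices. The groups of the PPARδ and PPARγ agonists did not overlap the controls, and the PPARα agonist library of cow 576 was the lowest of all 12. HSPA5 passed only with the cow as a block, with log2 fold changes of 1.01 ± 0.24 (adjusted p = 0.00640) for the PPARδ agonist and 0.73 ± 0.24 (0.111) for the PPARγ agonist, against 0.94 ± 0.34 (0.477) and 0.76 ± 0.34 (0.690) with treatment only.

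HSP90B1 measured 2383, 1113 and 2103 CPM with the PPARα agonist, 2476, 4927 and 2637 CPM with the PPARδ agonist and 4530.3, 1731 and 3041 CPM with the PPARγ agonist, against 2564, 2017 and 2077 CPM in control slices. All groups overlapped the controls, and its log2 fold changes of -0.25, 0.59 and 0.48 did not pass in either fit.

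MANF, CRELD2 and SDF2L1 passed only with the block. MANF, a secreted ER-resident protein that is released when ER calcium falls, had 799, 564 and 388 CPM with the PPARδ agonist, against 221, 238 and 272 CPM in control slices. Its log2 fold change was 1.21 ± 0.31 with the block (adjusted p = 0.0148) and 1.26 ± 0.41 without (0.388). Its levels of 704, 139 and 569 CPM with the PPARα agonist and 578, 237 and 389 CPM with the PPARγ agonist overlapped the controls in cow 576.

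CRELD2, an ER protein known as an ATF6 target, had 176, 26.5 and 132 CPM with the PPARα agonist, 145, 51.8 and 85.0 CPM with the PPARδ agonist and 244, 37.3 and 122 CPM with the PPARγ agonist, against 43.0, 22.6 and 49.9 CPM in control slices. In every cow each agonist library was above that cow's own control. With the block the log2 fold changes were 1.23 ± 0.39 (adjusted p = 0.101), 1.21 ± 0.38 (0.117) and 1.49 ± 0.39 (0.0130), and with treatment only 1.54 ± 0.54 (0.401), 1.29 ± 0.54 (0.575) and 1.80 ± 0.54 (0.259).

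SDF2L1, which works with BiP and ERdj co-chaperones, had 53.5, 188 and 32.1 CPM with the PPARδ agonist and 87.8, 55.8 and 49.8 CPM with the PPARγ agonist, against 43.4, 19.5 and 14.9 CPM in control slices. The PPARα agonist libraries (37.6, 12.8 and 43.5 CPM) overlapped the controls. For the PPARδ agonist its log2 fold change was 1.82 ± 0.55 (adjusted p = 0.298; 1.84 ± 0.47, 0.0148 with the block). With the PPARγ agonist it was 1.32 ± 0.55 (0.627; 1.37 ± 0.44, 0.0943 with the block).

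The other co-chaperones did not pass against control in either fit. DNAJB11 (ERdj3) averaged 88.2 ± 41.6, 81.5 ± 24.3 and 77.1 ± 11.4 CPM with the PPARα, PPARδ and PPARγ agonists, against 43.2 ± 10.1 CPM in control slices (SD, n = 3 each). DNAJC3 (p58IPK) averaged 149.6 ± 40.4, 308 ± 116 and 236 ± 38.4 CPM, against 192 ± 32.2 CPM. DNAJC10 (ERdj5), a reductase of the ER, averaged 25.0 ± 4.64, 28.6 ± 16.4 and 23.3 ± 5.79 CPM, against 27.3 ± 13.9 CPM.

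**Figure D2:**
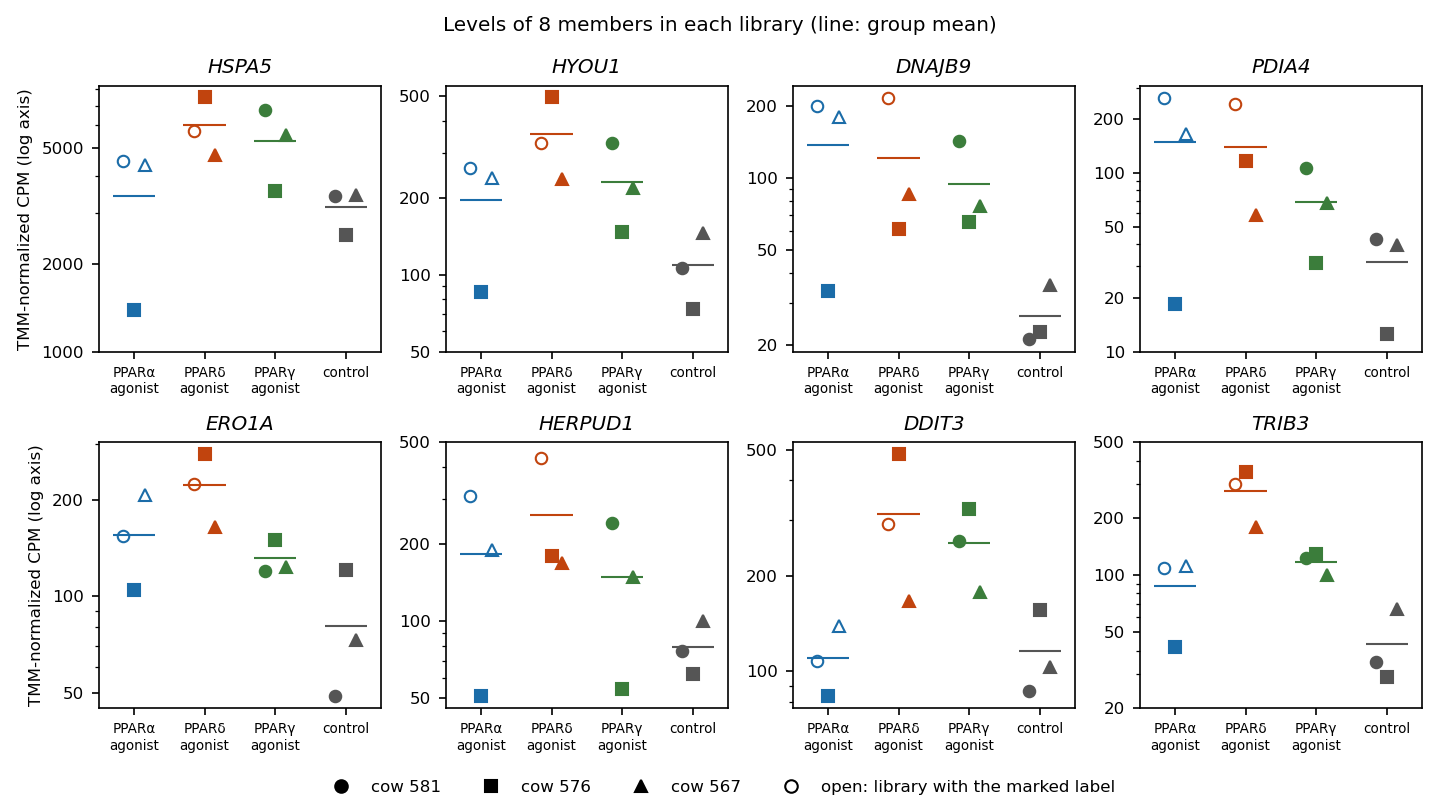
TMM-normalized CPM (log axis) of 8 members in each of the 12 libraries, by group, with the group mean as a line; symbols mark the cow and open symbols the 3 marked libraries. For TRIB3 the PPARδ agonist libraries sit between 178 and 349 CPM, above all libraries of the other groups, and for all 8 members plotted the PPARα agonist library of cow 576 sits below the highest control and below cows 581 and 567 with the same agonist.

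PDIA4 (ERp72), a protein disulfide isomerase, had 264, 18.5 and 166 CPM with the PPARα agonist, 244, 117 and 58.6 CPM with the PPARδ agonist and 107, 31.5 and 67.6 CPM with the PPARγ agonist, against 43.0, 12.6 and 39.6 CPM in control slices. Each agonist library was above the control of the same cow. It rose with the PPARα agonist by 2.24 ± 0.59 on the log2 scale (adjusted p = 0.141; 1.96 ± 0.39, 1.74e-04 with the block). With the PPARδ agonist the log2 fold change was 2.14 ± 0.59 (0.216; 2.31 ± 0.40, 9.18e-06 with the block), and with the PPARγ agonist 1.12 ± 0.58 (0.743; 1.11 ± 0.38, 0.151 with the block).

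ERO1A, the oxidase that recharges the disulfide isomerases, had 224, 278 and 165 CPM with the PPARδ agonist, 155, 105 and 208 CPM with the PPARα agonist and 121, 151 and 124 CPM with the PPARγ agonist, against 48.9, 121 and 73.2 CPM in control slices. Only the PPARδ agonist libraries were all above the controls. The log2 fold change was 1.46 ± 0.39 with the PPARδ agonist, with an adjusted p of 0.19999 at the very edge of the cut-off and of 0.00553 with the block. With the PPARα agonist it was 0.94 ± 0.39 (0.552; 1.02 ± 0.35, 0.168 with the block).

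P4HB, the founding protein disulfide isomerase, had 338, 128 and 379 CPM with the PPARα agonist and 302, 287 and 162 CPM with the PPARδ agonist, against 116, 137 and 122 CPM in control slices. With the block its log2 fold changes were 1.15 ± 0.34 (adjusted p = 0.0535) and 0.98 ± 0.33 (0.169), and with treatment only 1.17 ± 0.38 (0.324) and 1.00 ± 0.38 (0.512). The PPARγ agonist libraries (201, 185 and 140.1 CPM) lay above the controls without passing.

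PDIA6 had 405, 136 and 351 CPM with the PPARα agonist, 332, 102 and 202 CPM with the PPARδ agonist and 195, 114 and 192 CPM with the PPARγ agonist, against 125, 124 and 150.0 CPM in control slices. It passed only with the PPARα agonist and the block (0.98 ± 0.33, adjusted p = 0.157; 1.16 ± 0.41, 0.408 with treatment only).

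PDIA3 (ERp57), which works with the lectins on glycoproteins, was the one member called lower. It had 167, 521 and 139 CPM with the PPARα agonist, against 562, 525 and 483 CPM in control slices, so that the low values were those of cows 581 and 567. The log2 fold change was -0.93 ± 0.43 (adjusted p = 0.623), and -1.21 ± 0.31 with the block (0.0119). With the PPARδ agonist PDIA3 had 166, 962 and 463 CPM and with the PPARγ agonist 491, 539 and 375 CPM. The 3 values under 170.0 CPM were those of the 3 marked libraries.

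The lectin chaperones did not pass. CANX (calnexin) was below every control library in each agonist library, at 468 to 658 CPM with the PPARα agonist, 602 to 753 CPM with the PPARδ agonist and 482 to 710.2 CPM with the PPARγ agonist, against 821 to 858 CPM in control slices. Its log2 fold changes were -0.58 ± 0.31, -0.26 ± 0.31 and -0.45 ± 0.31 (adjusted p = 0.647, 0.846 and 0.744). CALR (calreticulin) averaged 668 ± 99.3, 851 ± 232 and 614 ± 132 CPM with the PPARα, PPARδ and PPARγ agonists, against 717 ± 48.2 CPM. ERO1B averaged 9.98 ± 4.57, 12.3 ± 10.5 and 9.93 ± 7.62 CPM, against 6.62 ± 3.96 CPM.

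Of the 7 genes of ER-associated degradation, which carry misfolded proteins back to the cytosol, none passed with treatment only. HERPUD1, a scaffold of the degradation complex, had 432, 179.5 and 169 CPM with the PPARδ agonist, against 76.4, 62.5 and 100.1 CPM in control slices, and the groups did not overlap. Its log2 fold change was 1.71 ± 0.49 (adjusted p = 0.250), and 1.56 ± 0.35 with the block (0.00252). With the PPARα agonist it had 309.6, 51.1 and 189 CPM and with the PPARγ agonist 243, 54.5 and 149 CPM, lowest in cow 576 both times.

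SYVN1 (HRD1), the ubiquitin ligase of this pathway, was low and uneven. It had 472, 8 and 702 counts with the PPARα agonist, 395, 0 and 43 counts with the PPARδ agonist and 124, 28 and 54 counts with the PPARγ agonist, against 1, 2 and 43 counts in control slices. In CPM these were 38.4, 1.53 and 56.1, then 45.3, 0 and 8.12, then 33.5, 4.52 and 12.9, against 0.398, 0.558 and 10.5. The count of 0 allows up to 0.990 CPM in that library (3 counts, counting error only). With the block the log2 fold change was 2.66 ± 0.78 with the PPARα agonist (adjusted p = 0.0563) and 2.5 ± 0.82 with the PPARγ agonist (0.112), and with treatment only 3.02 ± 1.1 (0.441) and 2.09 ± 1.08 (0.743). SYVN1 overlaps MRPL49 and SPDYC, and PDIA3 overlaps CATSPER2, in the RefSeq gene table for the newer assembly ARS-UCD2.0. No source used here states the strand setting of the counting. Reads in stretches shared with a neighbour may be counted with these genes or left out as ambiguous. This holds for 12 of the 37 members in all. Ambiguous reads were 1.06 to 1.40% in the 3 marked libraries and 0.38 to 0.78% in the 9 others, and their part in these values was not tested.

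The other degradation genes were described by their means. DERL1 averaged 87.5 ± 35.2, 87.8 ± 32.6 and 79.2 ± 11.4 CPM with the PPARα, PPARδ and PPARγ agonists, against 53.3 ± 11.6 CPM in control slices. DERL2 averaged 166 ± 22, 150.1 ± 36.0 and 168 ± 14.6 CPM, against 119 ± 47.8 CPM. DERL3 averaged 7.97 ± 4.86, 12.0 ± 8.57 and 9.14 ± 1.11 CPM, against 2.83 ± 1.73 CPM, from 3 to 15 counts in the control libraries. SEL1L, the partner of SYVN1, averaged 115 ± 20.0, 208 ± 75.2 and 148 ± 10.5 CPM, against 138 ± 24.1 CPM. EDEM1, which selects misfolded glycoproteins, averaged 19.5 ± 5.64, 21.1 ± 2.87 and 13.7 ± 1.98 CPM, against 19.8 ± 2.15 CPM. Its PPARγ agonist libraries were all below the controls, a pattern that 6.01% of all genes tested had with this agonist.

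Of the 6 sensors and transcription factors none passed with treatment only, and their median log2 fold changes were 0.30, 0.44 and 0.38 for the PPARα, PPARδ and PPARγ agonists. ATF4, the effector of PERK, had 1312, 1352 and 1199 CPM with the PPARδ agonist and 1052, 1384 and 1049.7 CPM with the PPARγ agonist. It had 945, 774 and 968 CPM with the PPARα agonist, against 987, 767 and 846 CPM in control slices. The first 2 groups did not overlap the controls, but the log2 fold changes of 0.57 ± 0.30 and 0.42 ± 0.30 did not pass (adjusted p = 0.650 and 0.750).

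ERN1 (IRE1) had 37.3, 69.4 and 41.7 CPM with the PPARγ agonist, 37.0, 18.5 and 39.6 CPM with the PPARα agonist and 58.8, 0.990 and 50.8 CPM with the PPARδ agonist, against 24.7, 9.21 and 26.9 CPM in control slices. It passed only with the PPARγ agonist and the block, at 1.68 ± 0.54 (adjusted p = 0.0891; 1.29 ± 0.67, 0.743 with treatment only). Its lowest value was that of the PPARδ agonist library of cow 576, with 3 counts.

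XBP1 averaged 208 ± 71.0, 230.0 ± 155 and 152 ± 49.8 CPM with the PPARα, PPARδ and PPARγ agonists, against 126 ± 21.7 CPM in control slices. EIF2AK3 (PERK) averaged 28.4 ± 6.62, 38.1 ± 10.6 and 38.9 ± 16.9 CPM, against 30.8 ± 15.8 CPM, and ATF6 117 ± 9.01, 165 ± 14.2 and 133 ± 21.4 CPM, against 145 ± 50.8 CPM. CREB3L2, a related ER-bound factor, averaged 30.2 ± 13.4, 15.0 ± 9.89 and 37.7 ± 11.1 CPM, against 20.6 ± 9.07 CPM. None of these passed in either fit, and each group overlapped the controls.

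TRIB3, a pseudokinase that ATF4 and DDIT3 induce and that binds ATF4 in turn, had the largest log2 fold change of the members with the PPARδ agonist in the treatment-only fit. It reached 301, 349 and 178 CPM there, 109, 41.8 and 112 CPM with the PPARα agonist and 124, 128 and 100.0 CPM with the PPARγ agonist, against 35.0, 29 and 66.6 CPM in control slices. No PPARδ or PPARγ agonist library overlapped the controls, and every PPARδ agonist library was above every other library. The log2 fold change was 2.66 ± 0.43 with the PPARδ agonist (adjusted p = 0.00115, rank 5 of all genes tested; 2.73 ± 0.38, 2.34e-09 with the block). With the PPARγ agonist it was 1.43 ± 0.42 (0.215; 1.47 ± 0.37, 0.00672 with the block).

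DDIT3 (CHOP), the transcription factor of prolonged ER stress, which overlaps MARS1 in that gene table, had 291, 483 and 166 CPM with the PPARδ agonist and 257, 324 and 178 CPM with the PPARγ agonist. It had 107, 83.5 and 138 CPM with the PPARα agonist, against 86.7, 156 and 103 CPM in control slices. The PPARδ and PPARγ agonist libraries were all above the controls, and those of the PPARα agonist overlapped them. For the PPARδ agonist the log2 fold change was 1.44 ± 0.39 (adjusted p = 0.207; 1.40 ± 0.34, 0.00758 with the block). With the PPARγ agonist it was 1.13 ± 0.39 (0.424; 1.13 ± 0.33, 0.0477 with the block).

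ASNS, asparagine synthetase, had 74.0, 287 and 60.4 CPM with the PPARδ agonist, 34.9, 23.7 and 58.4 CPM with the PPARα agonist and 55.1, 87.3 and 68.1 CPM with the PPARγ agonist, against 53.7, 34.9 and 43.8 CPM in control slices. The value of cow 576 with the PPARδ agonist exceeded all others. The log2 fold change was 1.67 ± 0.48 (adjusted p = 0.261; 1.49 ± 0.42, 0.0402 with the block).

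The other 3 targets did not pass in either fit. PPP1R15A (GADD34), which reverses the translational block, averaged 96.3 ± 27, 158 ± 20.8 and 115 ± 24.8 CPM with the PPARα, PPARδ and PPARγ agonists, against 77.9 ± 5.94 CPM in control slices. ATF3 averaged 92.2 ± 42.4, 149 ± 114 and 74.2 ± 12.2 CPM, against 69.1 ± 17.8 CPM. CHAC1, a glutathione-degrading enzyme induced through ATF4, averaged 7.79 ± 8.31, 9.14 ± 8.01 and 11.8 ± 2.18 CPM, against 12.1 ± 7.35 CPM, and had 0 counts in the PPARδ agonist library of cow 576.

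**Figure D3:**
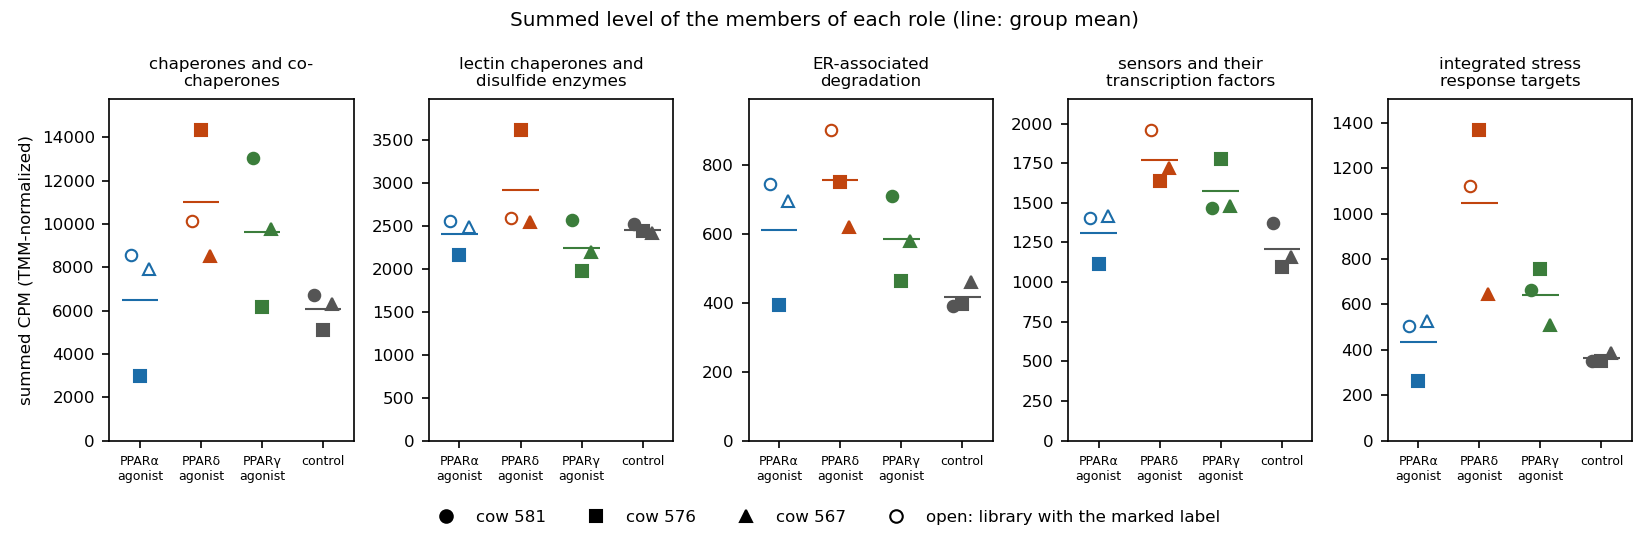
Summed TMM-normalized CPM of the members of each role in every library, by group, with the group mean as a line and open symbols for the 3 marked libraries. The sums of the 6 integrated stress response targets were 647 to 1370 CPM with the PPARδ agonist and 508 to 754 CPM with the PPARγ agonist, all above the 350 to 385 CPM of control slices, while the 264 to 527 CPM of the PPARα agonist overlapped the controls.

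Summed over a role, the chaperones reached 2975 to 8590 CPM with the PPARα agonist, 8536 to 14346 CPM with the PPARδ agonist and 6164 to 13049 CPM with the PPARγ agonist, against 5124 to 6743 CPM in control slices, and HSPA5 with HSP90B1 made up most of them. Degradation genes summed to 393 to 746, 620 to 901 and 463 to 710 CPM, against 391 to 460 CPM. The lectins and disulfide enzymes summed to 2157 to 2560, 2547 to 3619 and 1980 to 2568 CPM, against 2414 to 2521 CPM. The members as a whole took 1.11 to 1.93%, 2.12 to 3.42% and 1.68 to 2.87% of the counts outside RN18S1 for the PPARα, PPARδ and PPARγ agonists, against 1.62 to 1.73% in control slices.

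The 3 marked libraries bear on the PPARα agonist most, since 2 of its 3 libraries are marked. In all 3 marked libraries DNAJB9, DNAJB11, PDIA4, PDIA6, P4HB, SYVN1, DERL1 and ATF3 were above all 9 other libraries, and PDIA3 was below them. This is 21.6% of the members above and 2.7% below, against 4.49% and 2.21% of all genes tested. Without the 3 marked libraries the PPARα group is cow 576 alone, 0 members were called with treatment only and 0 with the block, where 0.411% and 0.264% of all genes were called, and the median of the members was -0.14 and -0.07. The same omission gave 10 members called with the PPARδ agonist (13 with the block), where 1.62% of all genes were called (1.71% with the block). It gave 7 with the PPARγ agonist (8 with the block), where 2.43% were called (2.77% with the block). What the mark means for these values was not tested, and for the PPARα agonist the mark and the treatment cannot be told apart in cows 581 and 567.

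The PPARα agonist library of cow 576 also stood apart in its cell type markers. Its 4 neutrophil markers summed to 1905 CPM, against 52.0 and 32.6 CPM in the other 2 libraries of the group and 24.7 to 73.4 CPM in control slices. Its 7 stellate and fibroblast markers summed to 2772 CPM and its 8 macrophage markers to 1522 CPM, against 287 and 298 CPM and 517 and 330 CPM in the other 2 libraries of the group, and its hepatocyte markers were the lowest of the 12 libraries (1568 CPM). The control library of the same cow had 1215, 673 and 1878 CPM of stellate and fibroblast, macrophage and hepatocyte markers. Among the control libraries it was the highest in the stellate and fibroblast sum and the lowest in the hepatocyte sum. In cow 576, 18 of 37 members were above the own control with this agonist, against 24 and 29 in cows 581 and 567. The shares of all genes by cow are not given here. Without this library 13 members were called with the PPARα agonist (13 with the block), where 5.1% of all genes were called (5.38% with the block). The group then held only the 2 marked libraries, of cows 581 and 567, so the mark and the treatment cannot be told apart in these calls. The part of the cell type markers in the member values was not tested, and in slices a smaller share of a cell type and less RNA per cell cannot be told apart.

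Summed markers of other cells lay apart from the controls in some groups and overlapped them in others. With treatment only 0.535, 0.308 and 0.631% of all genes were called for the PPARα, PPARδ and PPARγ agonists. With the block these shares were 2.68, 2.03 and 2.86%. Beside the calls given below, S100A8, S100A9 and S100A12 were higher with the PPARα agonist and DCN lower with the PPARγ agonist, with treatment only. The 5 T and NK cell markers summed to 21.1 to 39.9 CPM with the PPARα agonist, 16.2 to 26.1 CPM with the PPARδ agonist and 11.4 to 14.5 CPM with the PPARγ agonist, against 59.7 to 66.8 CPM in control slices, and GZMB was at 0 in 11 of the 12 libraries. The 8 macrophage markers summed to 330 to 1522, 117 to 339 and 125 to 324 CPM, against 473 to 921 CPM, and 0, 1 and 2 of 8 passed as lower for the PPARα, PPARδ and PPARγ agonists with treatment only, and 0, 5 and 6 with the block, C1QA, C1QB, C1QC and CD14 among them with both the PPARδ and the PPARγ agonist. The 7 stellate and fibroblast markers summed to 287 to 2772, 316 to 412 and 125 to 219 CPM, against 337 to 1215 CPM. The 6 endothelial markers summed to 174 to 515, 330 to 460 and 158 to 235 CPM, against 386 to 621 CPM, and the 5 bile duct markers to 55.9 to 163, 47.5 to 65.7 and 28.6 to 62.4 CPM, against 22.3 to 153 CPM. The 5 plasma and B cell markers that passed the filter on low counts summed to at most 32.2 CPM in any library, with CD79B at 0 in 9 and MS4A1 in 6 of the 12. Of the 8 hepatocyte markers none passed with any agonist in the treatment-only fit. With the block ALB and TTR were higher and CPS1 lower with the PPARα agonist, TTR and SERPINA1 were higher with the PPARδ agonist, and TTR, TF, SERPINA1 and CYP2E1 were higher with the PPARγ agonist. Their part in the member values was not tested.

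**Figure D4:**
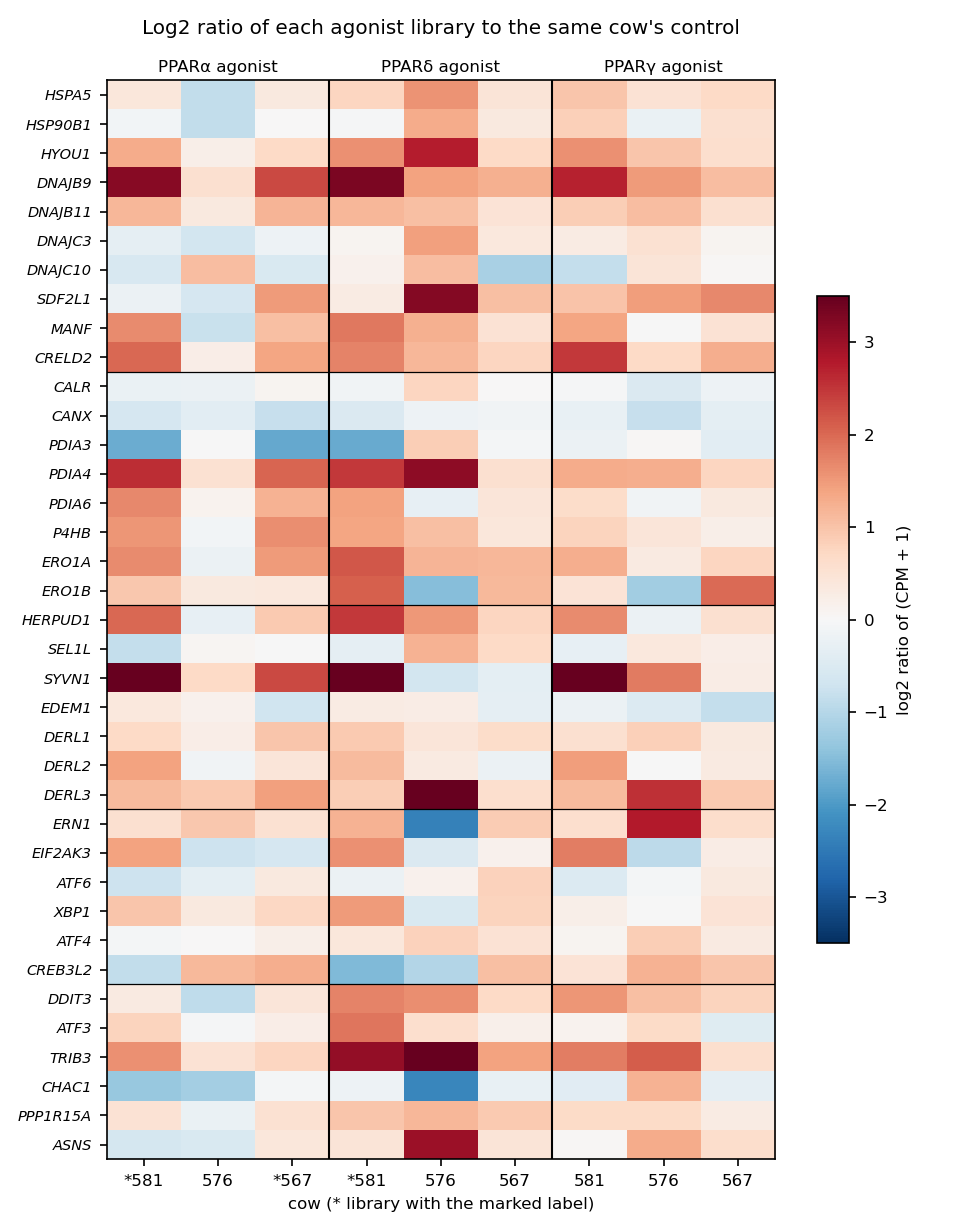
Log2 ratio of (CPM + 1) of each agonist library to the control library of the same cow for the 37 members (rows, by role), with the 3 cows of each agonist as columns and an asterisk on the marked libraries; ratios past the ends of the scale share its end colour. With the PPARδ agonist 29, 28 and 30 of the 37 members were higher in cows 581, 576 and 567, and with the PPARα agonist 24, 18 and 29. The shares of all genes higher in each cow are not given here.

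Within cows, 13, 20 and 20 members were above the own control in all 3 animals for the PPARα, PPARδ and PPARγ agonists. Among all genes tested the shares were 18.4, 9.33 and 15.8%, and among those past filterByExpr they were 22.6, 12.5 and 20.1%. The members below it in all 3 animals numbered 4, 2 and 3, where the shares of all genes were 10.4, 10.3 and 11.6%.

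Calls differed in how far they rested on 1 library. For the PPARδ agonist, TRIB3 kept its call when each of the 12 libraries was left out in turn, in both fits. HYOU1 and DNAJB9 kept theirs throughout with the block only. PDIA4, which was called only with the block, kept that call too. Without the control library of cow 581, HYOU1, DNAJB9 and ERO1A no longer passed with treatment only (adjusted p = 0.586 to 0.745). Nor did HYOU1 and DNAJB9 without the control of cow 576 (0.405 to 0.542), ERO1A without that of cow 567 (0.408) or DNAJB9 without the PPARδ agonist library of cow 581 (0.334). With the block, HSPA5, MANF, CRELD2, P4HB, ERO1A, HERPUD1 and DDIT3 were lost without the control of cow 581 (adjusted p = 0.229 to 0.851). HSPA5, SDF2L1, MANF, CRELD2, P4HB and ASNS were lost without the PPARδ agonist library of cow 576 (0.492 to 0.939), the library with the highest RN18S1 share. SDF2L1, P4HB and ASNS were lost without the control of cow 576 (0.216 to 0.556), and these with CRELD2 without that of cow 567 (0.265 to 0.473). P4HB was also lost without the PPARα, PPARδ or PPARγ agonist library of cow 581 or the PPARα or PPARγ agonist library of cow 567 (0.218 to 0.332 over these and CRELD2, which was lost without the first of them).

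For the PPARα agonist, DNAJB9 and PDIA4 were lost with treatment only without the control of cow 581 (adjusted p = 0.555 to 0.591) or of cow 576 (0.302 to 0.519), and PDIA4 without the control of cow 567 (0.234) or cow 581's PPARα library (0.39). With the block DNAJB9 kept its call without each of the 12 libraries, and PDIA4 lost it only without the PPARα agonist library of cow 567. The calls of CRELD2, PDIA3, PDIA6, P4HB and ERO1A each ended without the control of cow 581 or cow 567 or without either marked PPARα agonist library (adjusted p = 0.232 to 1, PDIA4 included). SYVN1 ended without the same libraries except the control of cow 567. ERO1A and PDIA6 ended without the PPARγ agonist library of cow 581 or 567 too (0.281 to 0.301), and ERO1A without the PPARδ agonist library of cow 567 (0.229).

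For the PPARγ agonist, DNAJB9 was lost with treatment only without the control of cow 581 (adjusted p = 0.692) or cow 576 (0.503) or the PPARγ agonist library of cow 581 (0.781). With the block TRIB3 kept its call without each of the 12 libraries, and DNAJB9 lost it only without the control of cow 581. HSPA5, HYOU1, CRELD2, PDIA4, SYVN1, ERN1 and DDIT3 were lost without that library as well (0.230 to 1, DNAJB9 included), and HSPA5, HYOU1, SDF2L1, CRELD2, PDIA4, SYVN1 and DDIT3 without the PPARγ agonist library of cow 581 (0.308 to 0.776). HSPA5, HYOU1, SDF2L1, ERN1 and PDIA4 were lost without the control of cow 576 (0.221 to 0.414), and HSPA5, SDF2L1, ERN1, PDIA4 and DDIT3 without that of cow 567 (0.214 to 0.661). PDIA4 was further lost, with HSPA5, SDF2L1, SYVN1, ERN1 or DDIT3, when a PPARγ library (cow 576 or 567) or a PPARα library (cow 581 or 567) was left out (0.213 to 1). Without all 4 libraries of cow 581, the 8 PPARα, 10 PPARγ and 8 of the 13 PPARδ calls of the block fit were lost (adjusted p = 0.542 to 1, 0.381 to 1 and 0.409 to 0.985). Without those of cow 567, 6 PPARα, 7 PPARγ and 3 PPARδ calls were lost, and without those of cow 576 0, 1 and 3.

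The agonists were also compared with each other, 3 pairs in all, at the doses given above, which are the same only for the PPARα and PPARγ agonists. For the PPARδ against the PPARα agonist, TRIB3 was higher (276 ± 88.5 against 87.4 ± 39.6 CPM, SD, n = 3 each; log2 fold change 1.66 ± 0.42, adjusted p = 0.176), where 0.156% of all genes were called. It was the one member called with treatment only, and that call ended when the control of cow 581 (adjusted p = 0.233) or of cow 567 (0.212), or either agonist library of cow 576 (0.212 for PPARα, 0.310 for PPARδ), was left out.

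With the block 7 members were higher with the PPARδ than with the PPARα agonist and none lower, where 1.16% of all genes were called. These were TRIB3 (1.74 ± 0.37, adjusted p = 0.00119), DDIT3 (1.37 ± 0.34, 0.0158), ASNS (1.67 ± 0.42, 0.0197), HSPA5 (0.97 ± 0.25, 0.0206), HSP90B1 (0.93 ± 0.26, 0.0533), PDIA3 (0.96 ± 0.30, 0.147) and DNAJC3 (1.05 ± 0.33, 0.157). With treatment only the last 6 had log2 fold changes of 0.81 to 1.84 and adjusted p of 0.214 to 0.811. For DNAJC3, an inhibitor of PERK, the PPARδ agonist libraries had 240.5, 442 and 242 CPM, against 181, 104 and 164 CPM with the PPARα agonist, and the groups did not overlap. TRIB3 kept this call without each of the 12 libraries. Without the PPARδ agonist library of cow 576 the other 6 were lost (adjusted p = 0.268 to 1), and 5 of them, all but PDIA3, without the PPARα agonist library of cow 576 (0.375 to 0.901). Without the PPARα agonist library of cow 581 all but HSPA5 and TRIB3 were lost (0.208 to 0.849), and DNAJC3, PDIA3 and HSP90B1 without the control of cow 567 (0.258 to 0.388). PDIA3 was also lost when cow 581's PPARγ library, cow 567's PPARα library (with DNAJC3) or cow 567's PPARδ library was left out (0.231 to 1).

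For the PPARγ against the PPARα agonist 0 members were called with treatment only by edgeR, 2 were higher and 1 lower at an unadjusted p under 0.05, and DESeq2 called 1, where it called 0.671% of all genes. The share of all genes under that unadjusted p is not given here. With the block DDIT3 (253 ± 73.1 against 109.8 ± 27.5 CPM; 1.11 ± 0.34, adjusted p = 0.103) and PDIA3 (469 ± 84.4 against 275 ± 213 CPM; 1.01 ± 0.30, 0.0992) were higher, where 1.27% of all genes were called. With treatment only they had 1.2 ± 0.39 (0.498) and 0.77 ± 0.43 (0.979). Both were lost without the PPARα or PPARγ agonist library of cow 581 or the control of cow 567 (0.249 to 1). DDIT3 was also lost without either library of cow 576 (0.893 and 0.320), and PDIA3 without either of cow 567 (1 and 0.224). Without the 3 marked libraries the difference of PDIA3 was -0.22.

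For the PPARγ against the PPARδ agonist 0 members were called with treatment only by edgeR, 1 was higher and 3 were lower at an unadjusted p under 0.05, and DESeq2 called 0, where it called 0.414% of all genes. The share of all genes under that unadjusted p is not given here either. With the block TRIB3 was lower with the PPARγ than with the PPARδ agonist (117 ± 15.1 against 276 ± 88.5 CPM; -1.25 ± 0.36, adjusted p = 0.101; -1.24 ± 0.41, 0.922 with treatment only), where 0.57% of all genes were called. It did not pass without the PPARδ agonist library of cow 576, the PPARγ agonist library of cow 581 or 567, or the control of cow 567 (adjusted p = 0.280 to 0.810).

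Other genes of the pathway, were taken from 5 longer lists. With treatment only, 1 of 38 other folding and disulfide genes passed with the PPARα agonist and 0 with the others, and 1 of 26 other sensors and transcription factors passed with the PPARγ agonist and 0 with the others. None of 26 other degradation genes, 35 other integrated stress response genes or 30 translocation and signal peptide genes passed with any agonist, although 4, 5 and 2, then 3, 7 and 1, then 10, 6 and 0 were higher at an unadjusted p under 0.05 with the PPARα, PPARδ and PPARγ agonists. The folding genes and the sensors had 5, 5 and 4, then 2, 8 and 3 higher at that p. Lower at that p were 2, 0 and 1 of the integrated stress response genes and 0, 1 and 1 of the sensors, and 0 in the other lists. The share of all genes at that p is not given here, so no excess is read from these counts. With the block the higher ones numbered 4, 1 and 2 of the folding genes, 1, 4 and 3 of the sensors and transcription factors, 2, 3 and 0 of the degradation genes, 1, 2 and 1 of the integrated stress response genes and 6, 2 and 0 of the translocation genes, and VEGFA with the PPARα agonist and NUPR1 with the PPARγ agonist were lower. In that fit 2.68, 2.03 and 2.86% of all genes were called with the PPARα, PPARδ and PPARγ agonists.

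The 2 that passed were TXNDC5 and CREB3L3. TXNDC5 (ERp46), a disulfide isomerase, had 31.2, 15.3 and 36.3 CPM with the PPARα agonist, 34.9, 9.90 and 9.82 CPM with the PPARδ agonist and 31.9, 15.0 and 22.4 CPM with the PPARγ agonist, against 7.16, 2.51 and 4.89 CPM in control slices. Every agonist library was above every control library, and the log2 fold change was 2.52 ± 0.71 with the PPARα agonist (adjusted p = 0.198; 2.57 ± 0.71, 0.0327 with the block). CREB3L3 (CREBH), an ER-bound transcription factor of liver, had 103, 159 and 91.5 CPM with the PPARγ agonist, 47.6, 18.5 and 83.9 CPM with the PPARα agonist and 88.4, 122 and 125 CPM with the PPARδ agonist, against 21.1, 29.3 and 57.5 CPM in control slices. It rose with the PPARγ agonist by 1.70 ± 0.47 on the log2 scale (adjusted p = 0.153; 1.86 ± 0.41, 9.76e-04 with the block), and the libraries of the PPARδ and PPARγ agonists did not overlap the controls.

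In cow 574, which entered no test, the 37 members had 2072 to 3665 counts in all per library, out of 772012 to 970406 counts in genes. There 20, 26 and 19 members were above the own control for the PPARα, PPARδ and PPARγ agonists, with median log2 ratios of 0.16, 0.23 and 0.02. Among all genes 49.5, 48.0 and 39.4% were above it, and the median was 0 each time. TRIB3 had 31, 58 and 16 counts with the PPARα, PPARδ and PPARγ agonists, against 17 counts in the control library, that is 0.92, 1.73 and 0.30 on the log2 scale of (CPM + 1). DNAJB9 had 15, 22 and 21 counts, against 11. With all 16 libraries in the treatment-only fit 0 members were called with any agonist, and so were 0 genes in all.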

How the data were processed

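The authors deposited raw read counts per gene of QuantSeq 3' libraries. The submitters' notes and methods name Trimmomatic 0.39, STAR 2.7.1, the build ARS-UCD1.2, SAMtools 1.0 and StringTie 2.0, and DESeq2 1.30.1 for the original tests. The table's header follows STAR's gene counts with NCBI symbols. Of its 28786 gene names 26 are spreadsheet dates, and 4 tallies of reads outside genes were left out.

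Genes with over 4 counts in 1 or more of 12 libraries were tested with edgeR 4.0.16 (R 4.3.3, limma 3.58.1) by the quasi-likelihood F test on TMM-normalized counts with treatment as the only term, and adjusted p (Benjamini-Hochberg over all 19824 genes) under 0.2 counted as called. SE were the log2 fold change divided by the root of F. The alternative with the cow as a block rests on the labels, which give the animal of each library; deviations of same-cow libraries had mean correlations of 0.092, 0.148 and 0.109 in cows 581, 576 and 567, the lowest of any pair being -0.027. The libraries of a group come from separate animals. DESeq2 1.42.0, other scaling, other filters, libraries left out and all 16 libraries were further alternatives. Both edgeR fits were also run on counts simulated without differences between cows. The outcome is not given here, and no result rests on it.

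The members and all lists were chosen with earlier results of these data known. Every member was named, with values by library and full statistics for those called in either fit or among the 4 smallest p of a comparison with control, and values by library for the 3 highest members. Gene neighbours came from RefSeq for ARS-UCD2.0, matched by symbol for all 37 members. Intervals and limits for a count of 0 cover counting error only.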

Additional observations from a re-analysis of the deposited data

Results flagged for a closer look

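TRIB3 differed between the effects of 2 agonists over the same controls: its log2 fold change for the PPARδ against the PPARα agonist was 1.66 ± 0.42 (edgeR, adjusted p = 0.176; 1.74 ± 0.37 and 0.00119 with the cow as a block). It was higher with the PPARδ agonist in 3 of 3 cows, at 301, 349 and 178 CPM with the PPARδ agonist, against 109, 41.8 and 112 CPM with the PPARα agonist in cows 581, 576 and 567.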

How the results depend on the processing

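With the cow as a replicate block, the members called numbered 8, 13 and 10 for the PPARα, PPARδ and PPARγ agonists against control, 2 for PPARγ against PPARα, 1 for PPARγ against PPARδ and 7 for PPARδ against PPARα. Among the 37 members the block changed no call other than those named in the report. In the same order, without PPARγ against PPARδ, DESeq2 called 1, 9, 2, 1 and 4 (320, 524, 370, 133 and 132 of all genes) and no filter on low counts gave 7, 13, 3, 1 and 4 (408, 340, 332, 195 and 199 of all genes). Under filterByExpr 0, 1 and 0 were called against control and 0 for PPARδ against PPARα (0, 3, 9 and 0 of all genes), and the same 4 comparisons gave 0, 0, 0 and 0 with all 16 libraries, where 0 of all genes were called. RLE size factors gave 1 for the PPARα agonist and 3 for PPARδ against PPARα (78 and 53 of all genes). Leaving out RN18S1 gave 2 for the PPARγ agonist (116 of all genes). With all 16 libraries and the block, 8 were called for the PPARδ and 3 for the PPARγ agonist (80 and 176 of all genes). The median of the members with the PPARγ agonist was 0.47 in that fit.

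Without the 3 marked libraries the calls against control were 10 for the PPARδ and 7 for the PPARγ agonist (308 and 461 of all genes). With the block they were 13 and 8 (324 and 526 of all genes). The PPARα median was -0.14 (-0.068 with the block). For the PPARα agonist the log2 fold changes were then -0.49 for CRELD2, 0.039 for PDIA3, -0.72 for PDIA4, -1.29 for SYVN1 and, with the block, -0.11 for P4HB. PDIA3 for PPARγ against PPARα became -0.22 (-0.0035 with the block). The PPARα group then holds 1 library, assumed to vary like the others.

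Leaving out 1 library or 1 cow gave 0 to 16 calls for the PPARα, 1 to 14 for the PPARδ and 0 to 12 for the PPARγ agonist, and with the block 0 to 17, 5 to 15 and 0 to 14. The upper ends came without cow 576, where 15.7, 5.04 and 5.49% of all genes were called (15.7, 5.19 and 5.82% with the block). For PPARγ against PPARα the calls were 0 to 4 (0 to 5 with the block), for PPARγ against PPARδ 0 to 1 (0 to 3) and for PPARδ against PPARα 0 to 6 (1 to 11). Without cow 576, PPARγ against PPARα had 4 (5 with the block), where 3.97% (4.53%) of all genes were called. PPARγ against PPARδ had 1 there, where 1.08% were called. Without the PPARδ agonist library of cow 581, PPARδ against PPARα had 6 (11 with the block), where 1.53% (4.55%) were called. The medians spanned 0.26 to 0.58, 0.65 to 1.01 and 0.46 to 0.71 against control, and with the block 0.23 to 0.57, 0.69 to 0.92 and 0.50 to 0.75. No such omission reversed a named member. Other than where libraries or genes tested became fewer, the cause was not tested.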
